A study of Mus musculus with 11 samples.

Results

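The genes described here encode the enzymes of amino acid breakdown and of the urea cycle, measured in preparations of liver sinusoidal endothelial cells (LSEC) from mice. Members were listed by gene symbol, and of 44 symbols listed 41 were matched on the array, each by 1 transcript cluster, out of 22206 clusters tested. Sds, Sdsl and Gls2 were not analysed here. The list was drawn up when hepatocyte transcripts, Fah and Aspdh among them, were already known to be lower in the knockout arrays, so both genes are given as a description and counts are also given for the other 39.

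The mice entered the diet at 8 weeks of age and had 2 weeks of high fat chow. All 11 arrays came from animals with floxed Atg5 alleles (Atg5lox/lox). The 6 wild type arrays had no Cre, and the 5 knockout arrays also carried VE-cadherin-Cre, a recombinase driven by a promoter active in endothelial cells, so hepatocytes are not the cells that this driver is meant to delete in. Atg5 is needed to form autophagosomes, and the comparison asks how its endothelial loss alters gene expression early in high fat feeding. The titles number the arrays as biological replicates but do not say how many mice went into each. The spread behind every p-value is that between these samples, which may be technical in part.

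Amino acid breakdown is a defining task of the hepatocyte. Transaminases and dehydratases take off the amino group, the carbon skeletons enter the citrate cycle or gluconeogenesis, and the nitrogen leaves as urea through Cps1 and Otc in mitochondria and further enzymes in the cytosol. Glucagon and glucocorticoids raise many of these enzymes in fasting, Tat being the classic case, and histidine breakdown and urea synthesis lie mainly in hepatocytes near the portal vein. Sinusoidal endothelium is not known as a main site of these pathways, although enzymes of lysine and branched-chain breakdown are found in many cell types.

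The upstream sequences of 5 members are shown because the results turn on them. Fah and Aspdh are the members whose genotypes did not overlap, Tat and Hpd have the 2 largest differences, and Aass is a member that did not differ. Each run holds the 250 bases before the annotated start in RefSeq's GRCm38.p6 table, 5′ to 3′ on the gene's strand, with matches to the motifs named below in capitals. The regions are chr7:84605943-84606192, minus strand (Fah), chr7:44465185-44465434, plus strand (Aspdh), chr8:109990186-109990435, plus strand (Tat), chr5:123182724-123182973, minus strand (Hpd) and chr6:23132987-23133236, minus strand (Aass).
Fah: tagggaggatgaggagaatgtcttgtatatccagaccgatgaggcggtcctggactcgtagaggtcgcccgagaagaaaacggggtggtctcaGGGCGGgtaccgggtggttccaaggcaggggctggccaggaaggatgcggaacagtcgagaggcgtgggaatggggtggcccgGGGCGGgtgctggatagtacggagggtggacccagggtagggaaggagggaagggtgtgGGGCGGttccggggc
Aspdh: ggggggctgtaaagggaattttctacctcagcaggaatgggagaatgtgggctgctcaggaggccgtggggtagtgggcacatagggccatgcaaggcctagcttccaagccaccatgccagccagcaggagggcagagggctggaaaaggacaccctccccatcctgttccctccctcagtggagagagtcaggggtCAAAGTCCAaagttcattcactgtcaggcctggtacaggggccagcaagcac
Tat: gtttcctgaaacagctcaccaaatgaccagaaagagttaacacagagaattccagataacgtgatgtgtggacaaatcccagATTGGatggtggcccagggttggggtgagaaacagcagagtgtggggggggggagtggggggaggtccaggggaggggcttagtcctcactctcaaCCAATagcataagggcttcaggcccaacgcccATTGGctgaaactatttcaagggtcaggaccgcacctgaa
Hpd: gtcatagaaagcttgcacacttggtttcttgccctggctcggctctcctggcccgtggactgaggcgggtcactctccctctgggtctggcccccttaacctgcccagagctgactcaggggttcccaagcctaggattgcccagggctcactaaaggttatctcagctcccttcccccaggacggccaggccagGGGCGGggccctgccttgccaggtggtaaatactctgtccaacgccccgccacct
Aass: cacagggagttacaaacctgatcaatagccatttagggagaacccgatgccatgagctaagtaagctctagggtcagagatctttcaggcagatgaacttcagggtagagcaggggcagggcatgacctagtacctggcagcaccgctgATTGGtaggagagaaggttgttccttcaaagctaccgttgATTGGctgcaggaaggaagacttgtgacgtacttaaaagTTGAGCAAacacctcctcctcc

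Promoters were found for 36 of the 41 members (38 promoters, as 2 members have 2). The motifs searched on both strands were the TATA box (TATAAA), the CCAAT box (CCAAT), the GC box (GGGCGG), a C/EBP motif (TTGCNNAA), an HNF4 motif (CAAAGTCCA) and the palindromic HNF1 motif. The HNF4 motif, named for a nuclear receptor of hepatocytes, was found in 0.384% of all 32841 promoters and in 1 member promoter, that of Aspdh, from 52 to 44 bases before the start. CCAAT boxes were in 52.6% of member promoters and in 33.9% of all, with 3 in Tat and 2 in Aass. GC boxes were in 34.2% of member promoters and 32.7% of all, with 3 in Fah and 1 in Hpd. TATA boxes were in 15.8% of member promoters against 12.4% of all, and C/EBP motifs in 13.2% against 9.57%, the latter including Aass. The HNF1 motif was in 0 member promoters and in 3 of all promoters. A match is a description of these letters and not a bound site.

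Levels are the authors' log2 values, in which a step of 1 is a doubling of signal, and differences are knockout minus wild type. The arrays had medians of 6.61 to 6.74, and precision is limited by having only 11 of them. LSEC markers read high on every array, with a mean over 17 genes of 11.82 to 12.20 in wild type and 11.85 to 12.21 in knockout. Hepatocyte markers (22 genes, none shared with the members) were above the mean of the antigenomic background controls on every array, with list means of 8.95 to 10.40 in wild type and 8.17 to 9.80 in knockout. Macrophage markers (15 genes) ranged over 6.90 to 8.30 in wild type and 7.53 to 10.14 in knockout. The intron controls, probes that read unspliced or genomic sequence, averaged 5.75 to 5.96 on wild type arrays 1 and 6 and knockout arrays 3 and 4 and 5.05 to 5.38 on the others. The Y-linked gene Kdm5d read 6.29 to 7.32 on wild type arrays 3 and 6 and knockout array 3 and 3.17 to 4.07 on the others, and the labels do not give sex. Atg5 had wild type levels of 7.50 ± 0.09 (SD, n = 6) and knockout levels of 7.60 ± 0.17 (SD, n = 5), and whether its probes lie in the floxed part is not known, so it says nothing of whether the deletion took place.

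Most of the members lay below 0 in the knockout arrays, among them all measured members of the tyrosine group and of the methionine and sulfur group. By the study's own rule (1.5-fold or more with p at or under 0.05 before adjustment, here from limma) 10 of 41 were lower, namely Fah, Hpd, Tat, Aspdh, Tdo2, Gnmt, Mat1a, Bhmt, Cdo1 and Otc, and 0 were higher. Otc was below background on all 5 knockout arrays and has only a bound, 1.32-fold, which is under the fold of the rule. With only clusters above background 9 members were lower. The 10 are 24.4% of the members, against 0.356% of all clusters lower and 0.671% higher by the same rule. Without Fah and Aspdh the count was 8 of 39. Below 0 lay 35 of the 41 members (85.4%, against 54% of all clusters), with a median of -0.24 against -0.02 over all clusters and -0.82 over the hepatocyte markers.

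None of the 41 members passed a Benjamini-Hochberg adjusted p of 0.05 over all clusters in limma, nor did any cluster, the lowest adjusted p of a member being 0.765. At an unadjusted p of at most 0.05 there were 13 members, all lower (against 3.78% of all clusters lower at that p). A two-sided exact permutation test enumerates every assignment of the 11 arrays to groups of these sizes, and the smallest p it can give is 0.0043. It put 2 of the 39 members tested at a p of at most 0.05, Tat and Otc, where chance alone gives about 1 in 20. Otc was below background on all 5 knockout arrays. The count of 10 rested on single arrays. It was 1, Tat alone, without wild type array 5 (against 0.167% of all clusters) and 13 without knockout array 2 (against 0.621%). The count was 5 without wild type array 4, 4 without knockout array 1, 6 without knockout array 3, 4 without knockout array 4 and 5 without knockout array 5. For these fits the share of all clusters is not given, so the counts are a description. Without the 4 arrays of high intron controls the count was 6 (against 0.473% of all clusters), in 4 wild type against 3 knockout arrays. The genes were Aspdh, Fah, Gnmt, Otc, Tat and Tdo2. Hepatocyte markers were lower in the same arrays, 14 of 22 by the rule, and the 8 of smallest p were Serpina1a, Rbp4, Serpina1b, Apoa2, Apoa1, Fgg, Fgb and Fga. In a bulk preparation fewer hepatocytes and less RNA of these genes per hepatocyte cannot be told apart.

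**Figure D1:**
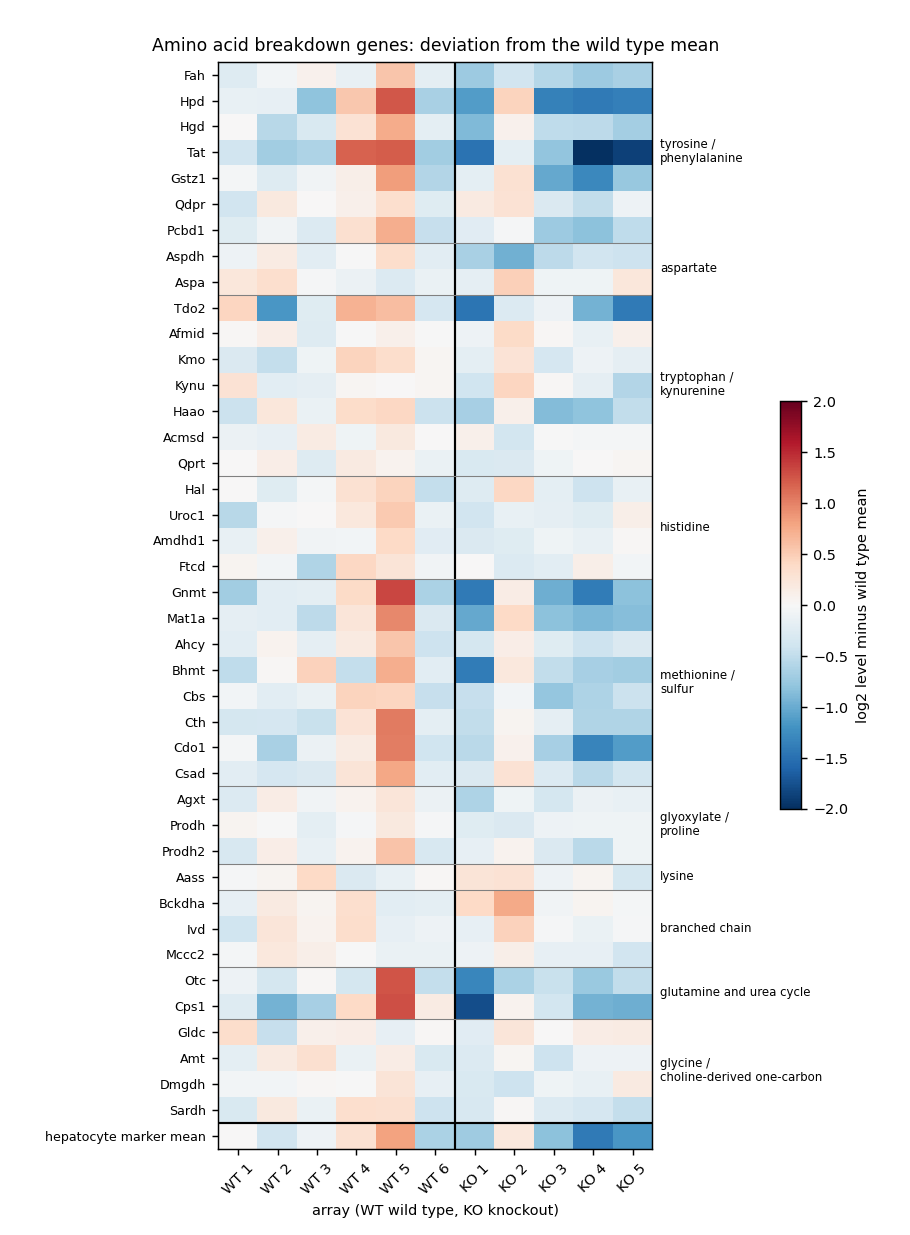
Deviation of each of the 41 genes from its wild type mean (log2, colour) on the 6 wild type (WT) and 5 knockout (KO) arrays, grouped by pathway, with the mean of the 22 hepatocyte markers in the bottom row. Wild type array 5 is red for most genes, but not in the rows of lysine and branched-chain enzymes. Knockout array 2 is paler or redder than the other knockout arrays for most genes, these rows included.

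Tyrosine breakdown runs through Tat, Hpd, Hgd, Gstz1 and Fah to fumarate and acetoacetate. All 7 genes of this group lay below 0 (median -0.59), and 3 met the rule. Tat, the aminotransferase that opens the pathway, read from 8.13 to 10.04 in wild type with a median of 8.33, and 7.35, 8.63, 8.03, 6.83 and 6.96 on knockout arrays 1 to 5. The genotypes overlapped, with wild type arrays 4 and 5 far above the rest and 4 of 5 knockout arrays below every wild type array. The 2.40-fold difference (-1.26, SE 0.44) had an exact permutation p = 0.0476 and was the largest among the members. It kept the rule in all 11 fits that left out 1 array, between -1.53 and -1.02.

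Hpd, the dioxygenase that makes homogentisate, read from 8.23 to 10.28 in wild type with a median of 8.89, and 7.92, 9.49, 7.69, 7.63 and 7.67 on knockout arrays 1 to 5. Knockout array 2 was above 4 of the 6 wild type arrays, while the other 4 knockout arrays lay below all of them. Its difference was 1.95-fold (-0.96, SE 0.40, exact permutation p = 0.0823), and the rule was lost without any of 6 arrays, wild type 4 or 5 or knockout 1, 3, 4 or 5, with -0.71 as the smallest size. Fah, which cleaves fumarylacetoacetate at the end of the pathway and whose loss causes tyrosinaemia, read from 7.70 to 8.51 in wild type with a median of 7.86, and 7.22, 7.57, 7.38, 7.22 and 7.30 in knockout. All 5 knockout arrays lay below all 6 wild type arrays, which held for 65 of all clusters (0.293%) and, among the members, for Fah and Aspdh, both known beforehand to be lower, and for 0 of the other 39. Group levels were 7.95 ± 0.30 (SD, n = 6) and 7.34 ± 0.15 (SD, n = 5), a 1.53-fold difference (-0.62, SE 0.15) that came to -0.50 without wild type array 5.

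The steps in between did not meet the rule. Hgd, which opens the ring of homogentisate, differed by -0.50 (SE 0.22) and passed the unadjusted p but not the fold. Gstz1, the maleylacetoacetate isomerase, and Cps1 of the urea cycle were the 2 members that reached the fold but not the p, which makes 12 past the fold alone (against 0.567% of all clusters). Gstz1 stood just outside the rule at -0.59 (SE 0.29, exact permutation p = 0.121), with knockout values of 6.94, 7.44, 6.11, 5.84 and 6.38 against 6.54 to 7.97. The pterin recycling genes, which serve aromatic amino acid hydroxylases, were apart from each other. Pcbd1, also a partner of the factor HNF1, differed by -0.46 (SE 0.22) and Qdpr by -0.08 (SE 0.17).

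Aspdh, named for an aspartate dehydrogenase domain, read from 6.99 to 7.56 in wild type with a median of 7.16, and 6.56, 6.24, 6.68, 6.82 and 6.79 on knockout arrays 1 to 5. The genotypes did not overlap, and the lowest of the 11 values was that of knockout array 2. Means were 7.20 ± 0.22 (SD, n = 6) and 6.62 ± 0.24 (SD, n = 5), a fold of 1.502 (-0.59, SE 0.14) that lies just inside the rule. It fell below the fold when any of wild type arrays 2 and 5 and knockout arrays 1 and 2 was left out, with -0.49 as the smallest size. Aspa, which cleaves N-acetylaspartate, read below the mean of its array's background controls on all 11 arrays, so no fold is given.

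Of the 7 genes of tryptophan breakdown 6 lay below 0, the median was -0.125, and 1 met the rule. Tdo2, the hepatic dioxygenase that starts it, read from 5.12 to 6.98 in wild type with a median of 6.38, and 4.82, 6.02, 6.19, 5.34 and 4.88 in knockout. Wild type arrays 2, 3 and 6 sat among the knockout values, and the gene was below background on 1 wild type and 2 knockout arrays. Its difference was -0.84 (SE 0.35, exact permutation p = 0.0823), and the rule was lost without any of 6 arrays, wild type 1, 4 or 5 or knockout 1, 4 or 5 (smallest size -0.68). Haao, which makes the precursor of quinolinate, read from 6.79 to 7.64 in wild type with a median of 7.26, and 6.55, 7.32, 6.36, 6.42 and 6.72 in knockout. Knockout array 2 alone reached the wild type range, and the gene passed the unadjusted p at 1.46-fold (-0.55, SE 0.21, exact permutation p = 0.0519). The other 5 did not: Afmid, the formamidase (0.06, SE 0.12), Kmo, the hydroxylase (-0.11, SE 0.17), Kynu, the kynureninase (-0.14, SE 0.17), Acmsd, which diverts the pathway from NAD synthesis (-0.07, SE 0.11), and Qprt, which leads into it (-0.13, SE 0.11). Kynu was below background on 4 wild type and 2 knockout arrays and Kmo on 1 wild type array.

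The 4 enzymes of histidine breakdown lay close to 0, with differences of -0.17 to -0.08, and 0 met the rule or the unadjusted p. Amdhd1, the imidazolonepropionase, had the smallest p of the group and read from 5.36 to 5.98 in wild type with a median of 5.51, and 5.29, 5.34, 5.5, 5.43 and 5.61 in knockout. Its ranges overlapped, with a difference of -0.15 (SE 0.12, exact permutation p = 0.225). Uroc1, the urocanate hydratase, differed by -0.17 (SE 0.17). Hal, the ammonia lyase that starts the pathway, differed by -0.12 (SE 0.18), and Ftcd, which passes the formimino group to folate, by -0.08 (SE 0.16).

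All 8 methionine and sulfur members lay below 0, with a median of -0.54, and 4 met the rule. Gnmt, the methyltransferase that removes excess S-adenosylmethionine, read from 6.80 to 8.83 in wild type with a median of 7.30, and 6.08, 7.64, 6.51, 6.09 and 6.68 on knockout arrays 1 to 5. Knockout array 2 again lay inside the wild type range and the other 4 below it. The difference was -0.89 (SE 0.36, exact permutation p = 0.0693), and leaving out any of wild type arrays 4 and 5 and knockout arrays 1, 3 and 4 ended the call (smallest size -0.63).

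Cdo1, the cysteine dioxygenase, read from 8.12 to 9.80 in wild type with a median of 8.70, and 8.24, 8.85, 8.10, 7.45 and 7.65 in knockout. Knockout arrays 3, 4 and 5 lay below the wild type range and arrays 1 and 2 within it. Its 1.64-fold difference (-0.71, SE 0.29, exact permutation p = 0.0693) did not meet the rule once any of wild type arrays 4 and 5 and knockout arrays 4 and 5 was left out (smallest size -0.51). Mat1a, the liver form of S-adenosylmethionine synthetase, read from 7.70 to 9.18 in wild type with a median of 8.04, and 7.20, 8.63, 7.40, 7.32 and 7.37 in knockout. Only knockout array 2 reached the wild type range. The 1.56-fold difference (-0.64, SE 0.29, exact permutation p = 0.0996) kept the rule in 3 of 11 fits, those lacking wild type array 3, wild type array 6 or knockout array 2, and its smallest size was -0.45.

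Bhmt, which remethylates homocysteine with betaine, read from 7.41 to 8.64 in wild type with a median of 7.82, and 6.52, 8.13, 7.42, 7.26 and 7.22 in knockout. The genotypes overlapped through knockout arrays 2 and 3. The 1.52-fold difference (-0.61, SE 0.28, exact permutation p = 0.104) kept the rule in 4 of 11 fits, those lacking knockout array 2 or one of wild type arrays 1, 4 and 6, with a smallest size of -0.41. Cbs, which opens transsulfuration, read from 6.60 to 7.50 in wild type with a median of 6.96, and 6.60, 7.01, 6.29, 6.45 and 6.63 in knockout. Wild type arrays 4 and 5 were highest and 2 knockout arrays lay below the wild type range, and the gene passed the unadjusted p at 1.38-fold (-0.46, SE 0.18, exact permutation p = 0.0606). Its partner Cth (-0.36, SE 0.25), the hydrolase Ahcy (-0.24, SE 0.17) and the taurine enzyme Csad (-0.24, SE 0.21) passed neither.

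The urea cycle genes among the measured members were Cps1, which fixes ammonia, and Otc, which makes citrulline. Further enzymes of the cycle are given with the wider set below. Otc read from 4.83 to 6.57 in wild type with a median of 5.08, and 4, 4.68, 4.86, 4.56 and 4.82 on knockout arrays 1 to 5. All 5 knockout arrays and 2 of 6 wild type arrays were below background, and wild type array 5 stood alone at the top. With the knockout arrays at their background level, wild type (mean 5.31) was at least 1.32-fold higher, while the measured means differed by -0.72 (SE 0.28, exact permutation p = 0.00866). Leaving out wild type array 5 or knockout array 1 ended the call (smallest size -0.47). Cps1 read from 5.93 to 8.17 in wild type with a median of 6.84, and 5.11, 6.95, 6.51, 5.94 and 5.90 in knockout. It was 1.74-fold lower, but the spread within each genotype was as wide (SD 0.81 and 0.70), and it missed the rule (-0.80, SE 0.39, exact permutation p = 0.113).

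Glyoxylate and proline genes differed by -0.27 to -0.16, and 0 of 3 met the rule. Agxt, which detoxifies glyoxylate in peroxisomes, had -0.27 (SE 0.13, exact permutation p = 0.0563), with knockout values of 5.63, 6.15, 5.89, 6.12 and 6.09 against 5.97 to 6.49. The related proline enzymes Prodh (-0.16, SE 0.10) and Prodh2, which acts on hydroxyproline (-0.21, SE 0.17), differed from wild type by similar sizes.

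The enzymes of lysine and branched-chain breakdown lay on both sides of 0, from -0.14 to 0.22. Aass, the bifunctional enzyme that starts lysine breakdown, read from 9.92 to 10.60 in wild type with a median of 10.21, and 10.46, 10.50, 10.11, 10.27 and 9.86 on knockout arrays 1 to 5. The ranges were nearly the same, with a difference of 0.03 (SE 0.15), and its sign turned when some arrays were left out. Bckdha, the E1 subunit of the branched-chain ketoacid dehydrogenase, was the member farthest above 0 at 0.22 (SE 0.16, exact permutation p = 0.26), with 7.52, 7.87, 7.05, 7.17 and 7.08 in knockout against 6.91 to 7.45 in wild type (median 7.06), so that knockout arrays 1 and 2 stood above the wild type range. Ivd, of leucine breakdown, differed by 0.03 (SE 0.16) and Mccc2, a carboxylase subunit of the same path, by -0.14 (SE 0.11).

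The glycine cleavage genes Gldc (0.07, SE 0.14) and Amt (-0.17, SE 0.135) were dim, below background on 2 and 3 arrays. Sardh, which demethylates sarcosine, read from 6.17 to 6.92 in wild type with a median of 6.61, and 6.26, 6.60, 6.31, 6.24 and 6.10 in knockout, a difference of -0.27 (SE 0.16, exact permutation p = 0.121). Its relative Dmgdh, which takes the step before it, differed by -0.15 (SE 0.12). None of these 4 met the rule.

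**Figure D2:**
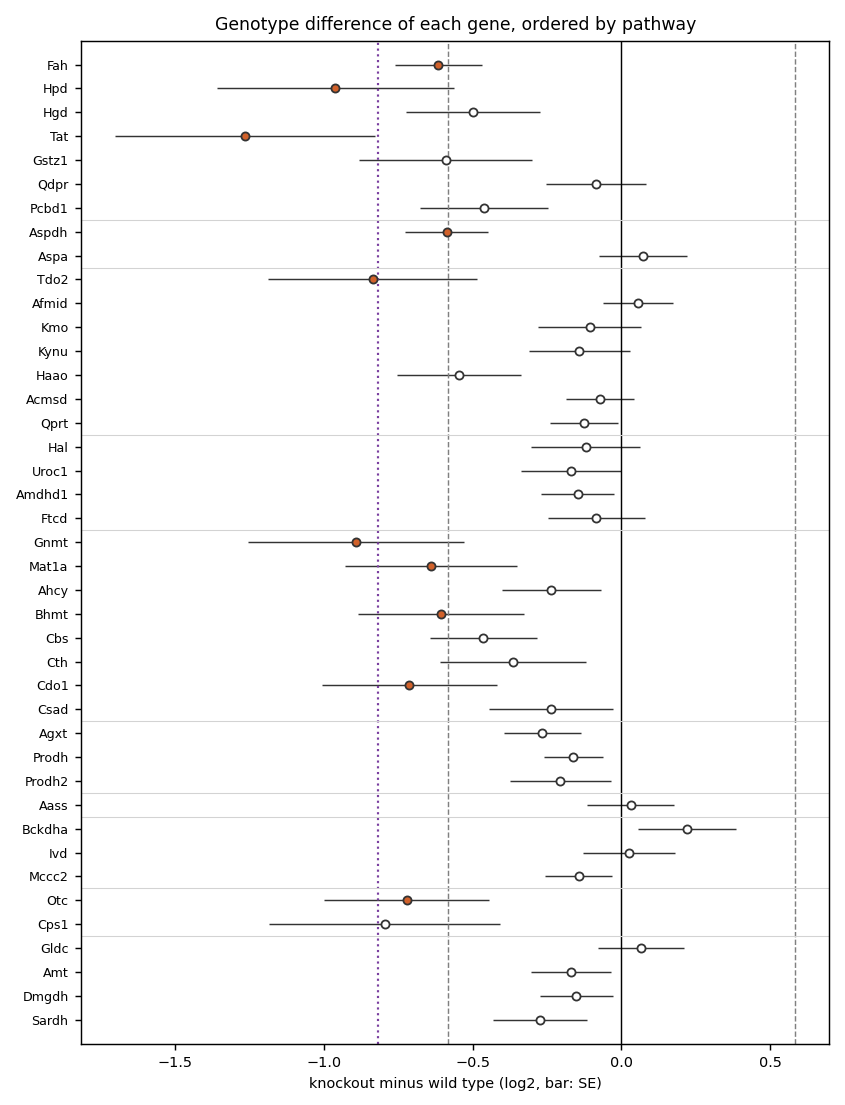
Knockout minus wild type difference of each gene (log2, point) with its standard error (bar), in pathway order with grey lines between pathways. Filled points are the 10 genes lower by the study's rule, dashed lines mark a fold of 1.5 and the dotted line the median of the hepatocyte markers (-0.82).

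Of the 41, 34 were above background on every array, 6 were below it on some arrays and 1, Aspa, on all.

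The same arrays stood at the extremes for most members. Wild type array 5 held the highest of the 11 values for 26 of 41 genes, and among the knockout arrays array 2 was highest for 31. Knockout array 1 was lowest of all for 11 genes and knockout array 4 for 10. The mean over the 41 members was 6.81, 6.83, 6.83, 7.13, 7.43 and 6.72 on wild type arrays 1 to 6, and 6.47, 7.01, 6.60, 6.47 and 6.55 on knockout arrays 1 to 5. The hepatocyte marker mean of the same arrays was 9.60, 9.20, 9.49, 9.89, 10.40 and 8.95, and 8.88, 9.80, 8.77, 8.17 and 8.43. Both measures put wild type array 5 highest and wild type array 6 lowest of its genotype, and knockout array 2 highest of its own.

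A wider set of enzymes of amino acid metabolism lay nearer to 0. Of 67 further enzymes listed, 56 were measured, 36 lay below 0, the median was -0.06 and 0 met the rule in either direction. At an unadjusted limma p of at most 0.05 there were 4, where 3.78% of all clusters passed on the lower side alone, so these genes are a description. Suox, the sulfite oxidase (-0.31, SE 0.13), was lower. Mat2b, a regulatory subunit of the non-hepatic S-adenosylmethionine synthetase (0.34, SE 0.13), and Shmt2, the mitochondrial serine hydroxymethyltransferase (0.56, SE 0.22), were higher. Aadat, the remaining gene, was below background on all 11 arrays, so no difference is given. Of the urea cycle enzymes in this list, Arg1, the hepatic arginase, differed by -0.59 (SE 0.33), Asl, the argininosuccinate lyase, by -0.18 (SE 0.16) and Nags, which makes the activator of Cps1, by -0.15 (SE 0.12).

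Amino acid transporters lay slightly above 0 (median 0.11, 9 of 16 above), and 2 met the rule, both higher. Slc7a2, a carrier of arginine and other cationic amino acids, read from 4.37 to 6.53 in wild type with a median of 5.39, and 6.80, 6.43, 5.87, 7.41 and 5.85 on knockout arrays 1 to 5. Knockout arrays 1 and 4 lay above the wild type range, it was below background on 1 wild type array, and the 2.04-fold difference (1.03, SE 0.35) met the rule in every fit that left out 1 array. Slc7a1, of the same family, read from 7.52 to 9.31 in wild type with a median of 8.52, and 8.61, 8.70, 9.64, 10.08 and 9.31 in knockout. The ranges overlapped, and it was 1.66-fold higher (0.73, SE 0.33) and lost the rule without any of 7 arrays, wild type 2, 3, 4 or 5 or knockout 3, 4 or 5 (smallest size 0.53). The knockout arrays also read higher for macrophage markers (15 of 15 above 0, 14 by the rule, median 1.15; Vsig4, Spic, Folr2, Aif1, Clec4f, Timd4, Cd5l and C1qa had the smallest p), and their part in these 2 differences was not tested. Of 18 measured transcriptional and hormonal regulators of the hepatocyte program 14 lay below 0 (median -0.12) and 0 met the rule. Nr1i3, the xenobiotic receptor CAR, was alone at an unadjusted limma p of at most 0.05 (-0.21, SE 0.10), where 3.78% of all clusters were lower. Genes of periportal hepatocytes (12, median -0.28, 3 lower by the rule, Pck1, G6pc and Hsd17b13) and of pericentral hepatocytes (9, median -0.33, 3 lower, Cyp2e1, Cyp1a2 and Gulo) differed by similar sizes, and no test of one zone against the other was made.

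How closely each member followed the hepatocyte marker mean of its array was read from the same limma model with that mean as a covariate. A slope of 1 means that a gene rose by 1 for each step of 1 in that mean, within genotype. Of the 41 members, 7 had a slope above 0 at an adjusted p of 0.05 over all clusters (17.1%, against 0.441% of all clusters), and 0 had one below 0 (against 0.0135%). They were Tat (slope 1.34, SE 0.22), Hpd (1.25, SE 0.19), Cdo1 (0.96, SE 0.12), Gstz1 (0.93, SE 0.13), Mat1a (0.85, SE 0.16), Csad (0.62, SE 0.12) and Hal (0.55, SE 0.10). The other end held Aspdh (-0.07, SE 0.14), Qprt (-0.05, SE 0.12), Acmsd (-0.05, SE 0.11), Dmgdh (-0.03, SE 0.12) and Prodh (-0.01, SE 0.10), none of which passed. Aass (0.04, SE 0.15) was also flat. Fah had a slope of 0.30 (SE 0.12, limma adjusted p = 0.227).

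The count of 7 changed with the arrays used. How many of all clusters passed in each of these smaller fits is not given. A lower count can therefore not be told apart from the effect of having fewer arrays, and the counts are a description. Without wild type array 5 and knockout array 4, the arrays farthest from the median marker mean, 0 members passed in limma, while the slopes of the same 7 genes ran from 0.49 (Csad) to 1.33 (Tat), with 1.29 for Hpd and 0.81 for Cdo1. Fah then had a slope of 0.14 and Otc one of 0.05, against 0.46 over all arrays. In the 6 wild type arrays alone 0 passed the adjusted p, with slopes of 1.31 for Hpd, 1.61 for Tat, 1.07 for Cdo1 and 0.91 for Gstz1. The count was also 0 without knockout array 2, 1 without wild type array 5, 3 without knockout array 4, 4 without wild type array 4 or 6, and 1 without the 4 arrays of high intron controls.

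**Figure D3:**
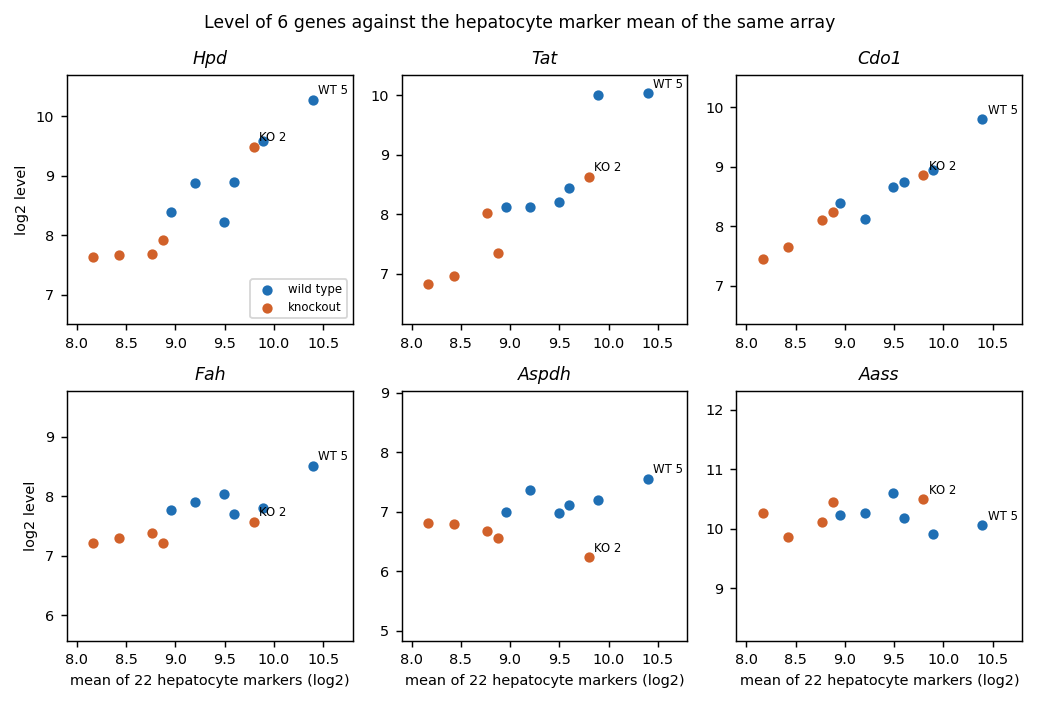
Log2 level of 6 genes (vertical axis, the same span in each panel) against the mean of the 22 hepatocyte markers on the same array (horizontal axis, log2), with 1 point per array. Hpd, Tat and Cdo1 rise with the marker mean in both genotypes, Aass is flat, and knockout array 2 lies lowest of all for Aspdh although its marker mean is 9.80.

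With that covariate in the model most genotype differences were near 0. The median over the members was -0.03, 22 lay below 0 and 19 above, and the rule was met by Aspdh, known beforehand to be lower, and by 0 of the other 39 (against 0.558% of all clusters). Hpd went from -0.96 to 0.02 (SE 0.24), Cdo1 from -0.71 to 0.04 (SE 0.15), Mat1a from -0.64 to 0.03 (SE 0.21), Gnmt from -0.89 to -0.07 (SE 0.27) and Tat from -1.26 to -0.21 (SE 0.28). A covariate that itself differs between the genotypes, here by -0.78, takes up part of any difference it shares with them, and it cannot say whether cell number or expression per cell moved.

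Aspdh and Fah, the 2 members already known to be lower, had differences of -0.64 (SE 0.18) and -0.38 (SE 0.15) in this model, given as a description. Of the other 39, 0 were lower at an unadjusted limma p of at most 0.05 (against 5.21% of all clusters), and 0 of the 41 passed the adjusted p. With 1 array left out, Aspdh ran from -0.77 to -0.33 and Fah from -0.43 to -0.32, each nearest to 0 without knockout array 2. In the fit without that array 0 members, Aspdh and Fah included, were lower at an unadjusted limma p of at most 0.05. On knockout array 2 the hepatocyte mean of 9.80 was within the wild type range, and Aspdh at 6.24 and Fah at 7.57 were both below their own wild type ranges. Otc, Acmsd, Amdhd1, Dmgdh, Prodh and Qprt were also below theirs on that array. The trait was thus not particular to Aspdh and Fah, and it rests on 1 array. Hal (0.31, SE 0.13) and Bckdha (0.42, SE 0.19) lay above 0 at an unadjusted limma p of at most 0.05. The share of all clusters above 0 at that p is not given, so both are a description. Neither kept that p in every fit with 1 array left out. The limma p rose to 0.111 for Hal without wild type array 6 and to 0.59 for Bckdha without knockout array 2.

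**Figure D4:**
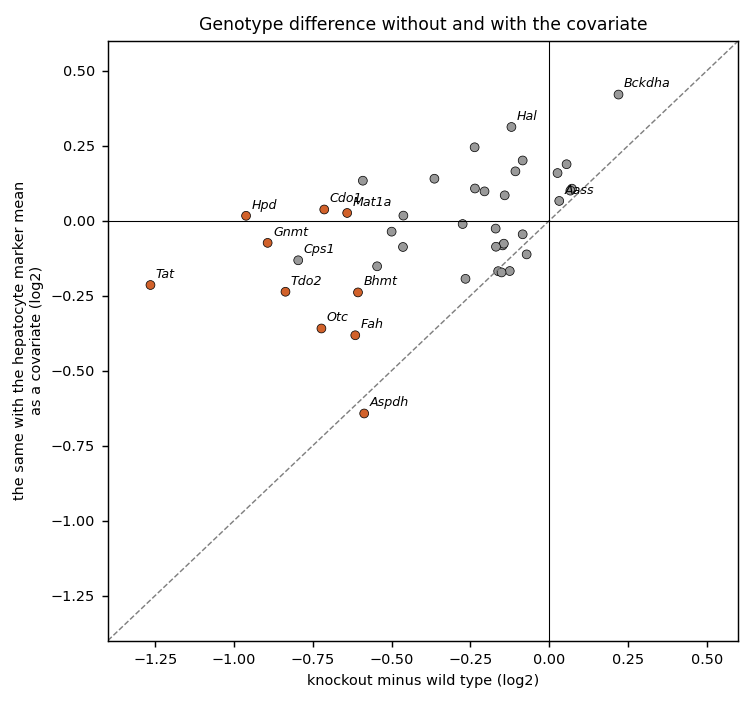
Genotype difference of each of the 41 genes (horizontal axis, log2) against the same difference from the model that holds the hepatocyte marker mean (vertical axis, log2), with the 10 genes lower by the rule filled in orange and the dashed line marking equal values. Most genes lie near 0 on the vertical axis, and Aspdh lies close to the dashed line at -0.64.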

How the data were processed

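RNA from LSEC preparations of 6 wild type and 5 knockout samples was hybridised to Mouse Clariom S arrays. The authors deposited log2 values with 2 decimals, made with RMA in Affymetrix Expression Console per the submitters' processing notes; their versions are not given in the sources used here. This procedure removes background signal, makes the arrays' distributions equal and summarises probes, so levels were compared between arrays within a gene and not between genes. Control rows (6640 of 28846) were left out. Symbols came from the platform annotation, and all 41 members matched RefSeq by gene identifier.

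The genotypes were compared with limma 3.58.1 (R 4.3.3; lmFit and eBayes) over 22206 clusters with Benjamini-Hochberg adjustment, and with the hepatocyte marker mean of each array as a covariate in a second model. Exact permutation tests used scipy 1.17.1. A cluster counted as below background on an array where it was under the mean of the 23 antigenomic controls. The fits were tested on simulated data. The members and lists were chosen with earlier results of these data known. All members are named, with every knockout value and the wild type range for those meeting the rule and for the smallest p of each pathway. Of the other lists, at most 8 genes meeting the rule are named, by p, and Suox, Aadat, Mat2b, Shmt2, Arg1, Asl, Nags and Nr1i3 were chosen after their values were seen. Replicate numbers shared by the genotypes did not pair the arrays (correlations of -0.321 to 0.389), so the reported values come from a model without a block. Alternatives covered a replicate block, normalization, weights, variance model, background, call rule, covariates and each array left out.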

Additional observations from a re-analysis of the deposited data

Results flagged for a closer look

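Within each genotype the highest and lowest array of every member, of the member mean, of the hepatocyte, macrophage and LSEC marker means and of the intron controls was set against its neighbour, and 6 of 92 groups of values held an array far from the others, where chance alone gives about 1 in 20. Knockout array 2 accounted for 4 of them. It read 9.49 for Hpd where the next knockout array read 7.92, 8.63 for Mat1a against 7.40, 7.24 for Ivd against 6.75, and 7.01 for the mean of the members against 6.59. Its hepatocyte marker mean (9.80) and macrophage marker mean (10.14) were also the highest of the knockout arrays. Wild type array 5 read 6.57 for Otc against 5.33 on the next array, and its hepatocyte marker mean of 10.40 was the highest of all. Wild type array 3 read 6.55 for Afmid against 6.80 on the next lowest array.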

How the results depend on the processing

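The direction of the group held in every setting run without the hepatocyte covariate. When 1 array was left out, 34 to 38 members lay below 0 and the median ran from -0.31 to -0.14. With that covariate the direction was not kept, as 22 members lay below 0 and 19 above, with a median of -0.03. The count of 10 lower members ran from 1 to 13 when 1 array was left out, and came to 6 with arrays centred on their medians, 6 without the 4 arrays of high intron controls (chosen after seeing the data) and 0 at an adjusted p. The 7 members that followed the hepatocyte mean ran from 0 to 10 with 1 array left out, and came to 0 with the replicate block, 4 with arrays centred, 4 with array weights, 1 without the high intron arrays, and 0 both without the 2 farthest arrays and within wild type. The 2 members lower at an unadjusted p with the covariate (Fah and Aspdh, known beforehand to be lower) ran from 0 to 2, with 1 under the replicate block and 1 with array weights. The median of the other enzymes ran from -0.125 to -0.0025 and their count by the rule from 0 to 3 with 1 array left out. That count was 2 under the replicate block, 1 after repeated quantile normalization, 1 with arrays centred and 4 with array weights. It was 1 without the high intron arrays and 2 with Kdm5d as a covariate. The direction of these calls is not given. Array weights also raised the count of lower members, to 14. The share of all clusters is not set beside the counts in this paragraph, so they are a description. The replicate block left the count of lower members at 10. Small differences turned sign: Acmsd to 0.0102 and Aass to -0.045 after quantile normalization, Aass to -0.0687 and Ivd to -0.0122 with array weights, and Ivd to -0.0283 without the high intron arrays. With 1 array left out, Ivd ran from -0.084 to 0.096, Aass from -0.033 to 0.127, Gldc from -0.024 to 0.140, Aspa from -0.028 to 0.140, Afmid from -0.028 to 0.105, Acmsd from -0.117 to 0.0033 and Qdpr from -0.176 to 0.019. The cause of these shifts was not tested. Signal near background limits Otc, Tdo2, Kynu, Gldc, Amt, Kmo and Aspa.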
